A study of Mus musculus with 6 samples.

Results

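The receptors described here are the Frizzled genes Fzd1 to Fzd8 and the co-receptor genes Lrp5 and Lrp6, 10 genes taken by symbol from a deposited table of 29018. Each symbol had 1 identifier, and all 10 passed the filter on low counts that left 18221 genes to be tested. Poly(A) RNA had been sequenced from osteoblasts, the cells that build bone, isolated from the calvaria (the skull vault) of neonatal mice and taken through osteogenic differentiation. The groups were NDR1 KO osteoblasts, with 3 libraries, and WT osteoblasts, with 3 libraries. NDR1 is a serine/threonine kinase encoded by Stk38. The sources used here gave neither the KO allele, strain or sex nor whether replicates were separate animals or cultures, so the p-values cover the variation among the 6 libraries alone, and that variation may be technical.

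Wnt proteins are secreted lipid-modified signals that bind a Frizzled, a receptor that crosses the membrane several times and carries a cysteine-rich domain on the outside. In the beta-catenin branch of the pathway the Wnt also binds LRP5 or LRP6, which cross the membrane once, and the complex recruits Dishevelled and Axin so that beta-catenin is no longer broken down. In bone, loss of LRP5 function causes low bone mass and certain LRP5 variants cause high bone mass in people, and mouse Lrp5 and Lrp6 both act in the osteoblast lineage. Frizzleds also serve branches of the pathway that do not use beta-catenin, with ROR or RYK receptors.

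The 8 Frizzleds fall into sequence subfamilies. Fzd1, Fzd2 and Fzd7 were the closest to each other, with 82.7% identical bases between the coding sequences of Fzd1 and Fzd2 and 78.6% between Fzd2 and Fzd7. Fzd5 and Fzd8 shared 76.7%, Fzd3 and Fzd6 66.7%, and Lrp5 and Lrp6 69.5%. Identity was taken over aligned bases, with gaps left out. Fzd1 and Fzd5, of different subfamilies, shared 72.9%, more than Fzd3 and Fzd6. Fzd3 shared 65.1% with Fzd1 and Fzd6 66.0% with Fzd2, so Fzd3 and Fzd6 were barely closer to each other than to these. Despite this likeness no stretch of 50 bases was shared between transcripts of any pair of the 10 genes in GENCODE release M21. Each Frizzled coding sequence held 1 copy of the motif through which the receptor engages Dishevelled, which reads lysine, threonine, 3 residues of any kind, tryptophan. The 18 bases of that motif are shown in capitals, with 12 bases on each side, for 7 Frizzleds, to show the signalling element that these mRNAs have in common and the subfamilies that differ around it.
Fzd1: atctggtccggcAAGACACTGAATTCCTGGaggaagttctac
Fzd2: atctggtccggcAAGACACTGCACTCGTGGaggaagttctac
Fzd7: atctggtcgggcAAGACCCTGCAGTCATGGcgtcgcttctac
Fzd5: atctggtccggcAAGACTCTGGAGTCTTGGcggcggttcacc
Fzd4: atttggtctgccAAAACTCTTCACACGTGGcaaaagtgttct
Fzd3: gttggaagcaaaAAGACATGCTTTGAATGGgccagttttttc
Fzd6: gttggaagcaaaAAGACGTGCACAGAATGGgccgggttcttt

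Fzd3 and Fzd6 had the same 12 bases before the motif, while Fzd1, Fzd2 and Fzd5 shared another run of 12. In Lrp5 and Lrp6 the cytoplasmic tail carries proline-rich motifs that are phosphorylated on Wnt binding and then hold Axin. A search for 3 prolines, serine or threonine, proline, any residue, and serine or threonine found 3 copies in each gene. Motifs that depart from this exact pattern would be missed, so the count is not of all such motifs. The first copy in each is shown with its 21 bases in capitals.
Lrp5: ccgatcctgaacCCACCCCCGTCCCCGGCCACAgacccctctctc
Lrp6: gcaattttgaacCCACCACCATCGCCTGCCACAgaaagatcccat

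The table of promoter sequences from RefSeq (build GRCm38.p6) held 4 of the 10 genes. The 250 bases before the start are shown for Fzd4 and Fzd5, the genes with the largest and the smallest change between the genotypes, for which the 50 bases after the annotated start also lie in a GENCODE M21 transcript. Capitals mark GC boxes with the letters GGGCGG, boxes that read CCAAT, TATA boxes with the letters TATAAA, and TCF/LEF cores, which read CTTTGA and may also read CTTTGT, all searched on both strands, and matches that overlap were counted separately. The Fzd4 stretch is chr7:89404116-89404365 on the plus strand and the Fzd5 stretch is chr1:64737751-64738000 on the minus strand. These positions cannot be set beside the deposited gene coordinates given below, whose build was not settled.
Fzd4: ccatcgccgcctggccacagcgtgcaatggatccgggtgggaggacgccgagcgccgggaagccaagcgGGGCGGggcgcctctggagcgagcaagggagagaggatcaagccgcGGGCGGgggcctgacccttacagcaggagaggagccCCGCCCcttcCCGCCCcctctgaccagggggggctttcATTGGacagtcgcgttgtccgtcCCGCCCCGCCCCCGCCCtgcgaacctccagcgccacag
Fzd5: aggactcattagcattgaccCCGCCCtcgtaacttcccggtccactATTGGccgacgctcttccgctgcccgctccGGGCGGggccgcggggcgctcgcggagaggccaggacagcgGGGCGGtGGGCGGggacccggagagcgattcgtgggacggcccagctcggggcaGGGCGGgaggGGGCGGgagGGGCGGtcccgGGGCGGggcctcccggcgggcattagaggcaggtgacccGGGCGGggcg

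The pair had much the same make-up. Fzd4 had 7 GC boxes and 1 CCAAT box in 72.8% G or C, and Fzd5 had 9 GC boxes and 1 CCAAT box in 76.4% G or C. Neither stretch held a TATA box or a TCF/LEF core. Of 32851 promoter windows of this length, 32.7% held a GC box, 33.8% a CCAAT box, 12.4% a TATA box and 27.6% a TCF/LEF core.

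The libraries held 61461870 to 76159034 counts in KO and 66308530 to 68395991 in WT. Stk38 had 4.17, 3.98 and 4.31 FPKM in KO and 5.83, 6.20 and 6.35 FPKM in WT, so it was lower but still read in the KO libraries (log2 change -0.61 ± 0.05 SE). FPKM are counts scaled by the authors to transcript length and library total. With a Benjamini-Hochberg adjusted p under 0.05 as the threshold, edgeR's quasi-likelihood test called 22.9% of the 18221 genes. Higher calls made up 11.2% of the tested genes and lower calls 11.7%. On a scaling by library totals alone 63.0% of the calls were higher in KO, against 49.0% with the TMM scaling used here. The 9 osteoblast markers were read in every library and summed to 4875 to 5081 FPKM in KO and 6533 to 6764 FPKM in WT. Col1a1 and Col1a2, collagen genes that other connective tissue cells also express, made up at least 99.1% of that sum in each library. Bglap, an osteocalcin gene, had 0.275 to 0.831 FPKM in KO and 0.611 to 1.60 FPKM in WT. Bglap2, also an osteocalcin gene, had 5.03 to 6.56 FPKM in KO and 5.23 to 8.26 FPKM in WT. Neither was called. Alpl (log2 change -1.19 ± 0.06), Dmp1 (-1.18 ± 0.10) and Runx2 (-0.23 ± 0.05) were called lower. Col1a1 (-0.46 ± 0.02) and Col1a2 (-0.51 ± 0.02) were also called lower. Alpl had 9.31 to 11.0 FPKM in KO and 21.9 to 22.9 FPKM in WT. The log2 changes of Sp7 (0.15 ± 0.07) and Ibsp (0.39 ± 0.16) were positive, and neither gene was called.

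Wnt receptor mRNA was lower in KO osteoblasts across nearly the whole family. Of the 10 genes 9 were called lower and 0 higher, where 11.7% of all tested genes were called lower, and the median log2 change was -0.29 against 0.004 over all tested genes. The 9 were both co-receptors and 7 of the 8 Frizzleds. The falls were modest, from 36.6% for Fzd4 to 11.4% for Fzd1, and Fzd5 was not called. These percents, and the percents of WT given below, come from edgeR log2 changes after TMM scaling, not from FPKM. In limma on log2(FPKM + 0.1) the log2 changes of Fzd4 and Fzd1 were smaller in size, at -0.60 and -0.13. Scaled counts (CPM after TMM) of the 3 KO and the 3 WT libraries did not overlap for any of the 10, which held for 38.2% of all tested genes. In FPKM the KO and WT libraries did overlap for Fzd5. The share of all genes without overlap was not computed in FPKM.

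**Figure D1:**
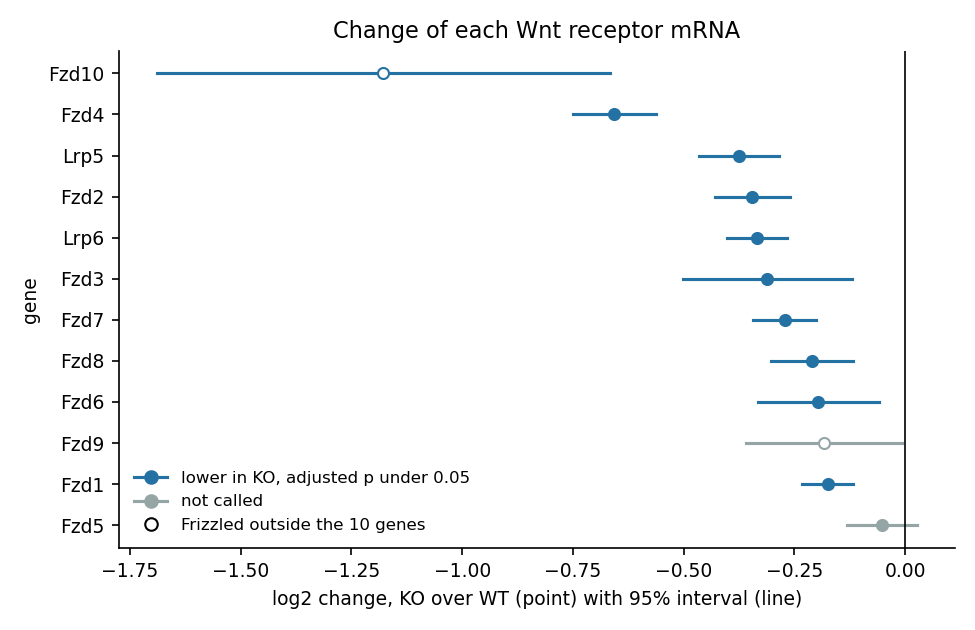
Log2 change of each receptor mRNA, KO over WT, on the x axis with its 95% interval as a line, for the 10 genes (filled points) and for Fzd9 and Fzd10 (open points). Blue marks genes called lower in KO and grey those not called, and Fzd5 is the filled point nearest to 0, at -0.05.

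Other features of the cultures moved with these falls. The summed FPKM of 10 macrophage markers was 611 to 682 in KO and 235 to 310 in WT, with 9 of the 10 called higher, and Lyz2 made up 80.8 to 84.0% of the sum. That of 5 detected endothelial markers was 1.47 to 1.81 in KO and 2.89 to 3.05 in WT, with 3 called lower, and Cdh5 and Pecam1 stood under 1 FPKM in every library. Of 5 tested adipocyte markers 4 were called lower, as were 5 of 9 osteoblast markers, and the adipocyte sum was 3.49 to 3.80 FPKM in KO and 6.74 to 7.64 FPKM in WT. Pparg, which was not called, made up most of the KO sum, with 3.33 to 3.65 FPKM in KO and 3.46 to 4.21 FPKM in WT. The adipocyte markers called lower were Adipoq (log2 change -4.41), Cidec (-7.81), Plin1 (-5.57) and Fabp4 (-3.5). Cidec had 0 FPKM in every KO library. Of 6 mural cell markers 5 were higher, among them Rgs5 (log2 change 2.08 ± 0.15), and 1, Acta2, was lower. Acta2 made up nearly all of the mural sum, which was 972 to 1068 FPKM in KO and 1115 to 1161 FPKM in WT. Of 6 chondrocyte markers 2 were higher, with Col2a1 at 0.60 ± 0.04, and 2 lower, with Matn1 at -4.54 ± 0.22. Sox9 (0.52 ± 0.04) was also higher and Col9a1 (-1.25 ± 0.04) also lower, while Acan (0.05 ± 0.09) and Comp (-0.14 ± 0.06) were not called. The chondrocyte sum was 542 to 575 FPKM in KO and 398 to 441 FPKM in WT. Col2a1 alone had 453 to 488 FPKM in KO and 283 to 314 FPKM in WT. Of 5 osteoclast markers 2 were lower, Ctsk (-0.45 ± 0.03) and Mmp9 (-5.27 ± 0.09), and 0 higher. Acp5 (0.07 ± 0.08), Oscar (0.40 ± 0.49) and Ocstamp (-1.79 ± 0.86) were not called. The osteoclast sum was 144 to 149 FPKM in KO and 225 to 229 FPKM in WT. Ctsk alone had 135 to 141 FPKM in KO and 180 to 188 FPKM in WT. Of 6 tested muscle markers 2 were lower and 0 higher, with a sum of 3.04 to 3.91 FPKM in KO and 5.49 to 6.44 FPKM in WT. Neural markers (1 of 3 tested higher, 0 lower) summed to 1.32 to 1.67 FPKM in KO and 1.28 to 1.51 FPKM in WT, and epithelial markers (0 of 1 tested called) stayed under 0.171 FPKM in every library. The part of these shifts in the receptor changes was not tested. In libraries made from whole cultures, fewer cells of a type and less receptor mRNA per cell cannot be told apart.

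The co-receptors fell together. Lrp5 (ENSMUSG00000024913, chromosome 19, 3634828 to 3736564 on the minus strand in the deposited coordinates, whose build was not settled) had 8.69, 9.49 and 8.87 FPKM in KO and 11.2, 11.7 and 11.0 FPKM in WT. Every KO library was below every WT library, and KO replicate 2 was the highest of its group. The log2 change was -0.38 ± 0.04, so Lrp5 stood at 77.1% of WT, with a 95% interval of 72.4 to 82.1% (edgeR, Benjamini-Hochberg adjusted p = 7.68e-05). Lrp6 (ENSMUSG00000030201, chromosome 6, 134423439 to 134543876, minus strand) had 11.0, 11.5 and 11.0 FPKM in KO and 13.9, 13.7 and 13.3 FPKM in WT. It again separated the genotypes in every library, with KO replicate 2 the highest of its group. Its log2 change of -0.33 ± 0.03 left 79.3% of the WT level, within 75.7 to 83.1% (edgeR, adjusted p = 2.055e-05).

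The balance between the co-receptors did not separate the genotypes. The ratio of Lrp6 to Lrp5, both in FPKM, was 1.26, 1.21 and 1.24 in KO and 1.24, 1.16 and 1.21 in WT. These ranges overlapped. The sum of both genes averaged 20.2 ± 0.704 FPKM in KO libraries and 24.9 ± 0.589 FPKM in WT libraries (SD, n = 3 each).

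Fzd1, Fzd2 and Fzd7, the subfamily that can signal through beta-catenin with LRP6, were the most abundant Frizzleds in both genotypes, and all 3 fell. Fzd1 (ENSMUSG00000044674, chromosome 5, 4803839 to 4808035, minus strand) had 60.6, 62.7 and 60.1 FPKM in KO and 65.5, 67.6 and 67.0 FPKM in WT. The groups lay close but apart, with a log2 change of -0.17 ± 0.03 that left 88.6% of the WT level (85.1 to 92.2%, edgeR, adjusted p = 6.91e-04). Fzd2 (ENSMUSG00000050288, chromosome 11, 102495222 to 102498884, plus strand) had 31.5, 29.2 and 31.4 FPKM in KO and 37.6, 38.5 and 36.9 FPKM in WT. KO replicate 2, the highest KO library for Fzd1, was the lowest for Fzd2. The log2 change of Fzd2 was -0.35 ± 0.04, or 78.7% of WT (74.2 to 83.5%, edgeR, adjusted p = 8.89e-05). Fzd7 (ENSMUSG00000041075, chromosome 1, 59521583 to 59526114, plus strand) had 18.8, 19.1 and 19.4 FPKM in KO and 22.1, 22.3 and 22.4 FPKM in WT. The spread within each genotype was small, and the log2 change of -0.27 ± 0.03 left 82.8% of WT (78.8 to 87.0%, edgeR, adjusted p = 1.31e-04).

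**Figure D2:**
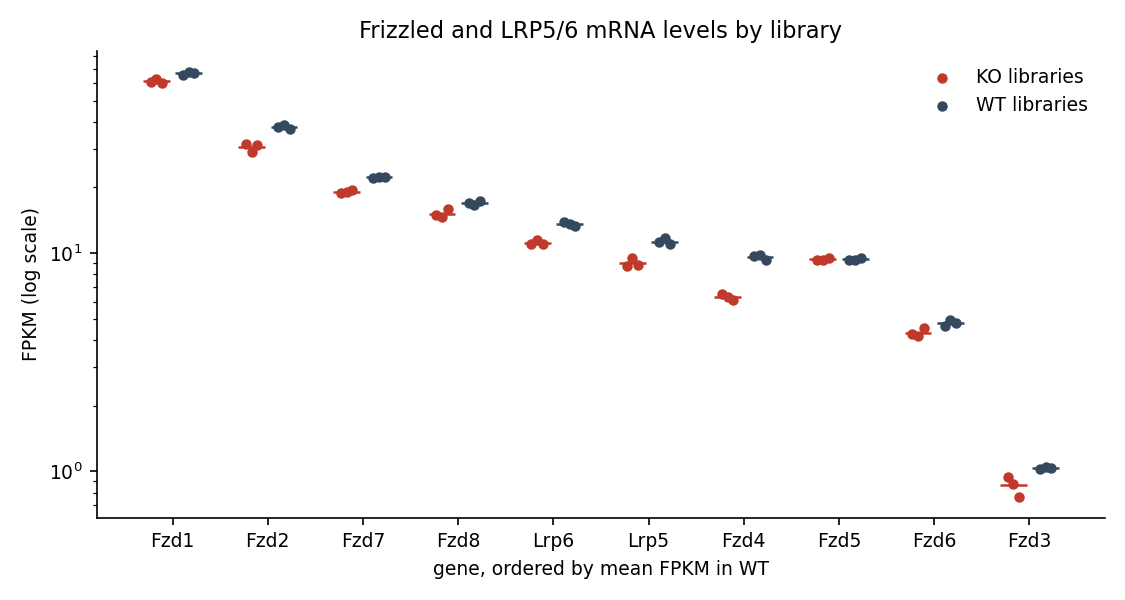
FPKM of each receptor gene on a log scale, ordered by mean level in WT, with 1 point per library and a line at the mean of each genotype, KO on the left and WT on the right of each gene. Fzd1 leads in both genotypes at 61.1 FPKM in KO and 66.7 FPKM in WT, Fzd3 is the lowest, and Fzd4 and Fzd5 are level in WT but apart in KO.

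Fzd4 had the largest fall of the 10. It encodes a receptor for several Wnts and also for norrin, a ligand that is not a Wnt and acts on blood vessels of the retina. Fzd4 (ENSMUSG00000049791, chromosome 7, 89053563 to 89062342, plus strand) had 6.49, 6.29 and 6.08 FPKM in KO and 9.68, 9.76 and 9.27 FPKM in WT. The lowest WT library stood well above the highest KO library. The log2 change was -0.66 ± 0.04, which left 63.4% of WT (edgeR, adjusted p = 1.75e-06). Its 95% interval of 59.4 to 67.7% lay below those of the other 9 genes, the nearest of which was Fzd3 with a lower bound of 70.6%. Fzd4 is known from endothelial cells among others, and which cells of these cultures held it was not tested. Of the endothelial markers Tek (-0.82 ± 0.13), Cdh5 (-1.63 ± 0.34) and Plvap (-0.93 ± 0.27) were called lower. Pecam1 (-0.71 ± 0.48) and Kdr (0.64 ± 0.57) were not called.

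Fzd5 and Fzd8, a subfamily that binds many Wnts, differed from each other in their calls. Fzd5 (ENSMUSG00000045005, chromosome 1, 64769717 to 64776910, minus strand) had 9.29, 9.32 and 9.47 FPKM in KO and 9.33, 9.32 and 9.50 FPKM in WT. The groups overlapped. Its log2 change of -0.05 ± 0.04 was not called (edgeR, Benjamini-Hochberg adjusted p = 0.351), and the 95% interval of 91.3 to 102% of WT shows how large a fall these libraries would allow. Fzd8 (ENSMUSG00000036904) had 15.0, 14.6 and 15.9 FPKM in KO and 16.9, 16.6 and 17.3 FPKM in WT. KO replicate 3 came nearest to WT, and the log2 change of -0.21 ± 0.04 left 86.4% (81.1 to 92.1%, edgeR, adjusted p = 0.0041). In limma on log2(FPKM + 1) without a filter on low values Fzd8 was not called (adjusted p = 0.0531). Whether Fzd5 and Fzd8 differ in their change was not tested, and their intervals overlapped.

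Fzd3 and Fzd6, the subfamily known in mice for axon guidance and for the alignment of hairs and sensory cells, were the least abundant of the 8 Frizzleds, and their calls were the weakest. Fzd6 (ENSMUSG00000022297, chromosome 15, 38869429 to 38901583, plus strand) had 4.28, 4.16 and 4.55 FPKM in KO and 4.66, 4.95 and 4.78 FPKM in WT. KO replicate 3 and WT replicate 1 nearly met. The log2 change was -0.20 ± 0.06, or 87.3% of WT (79.4 to 96.0%, edgeR, adjusted p = 0.0442), and the call was kept in 2 of 14 alternatives, with adjusted p from 0.0341 to 0.143. Leaving out any 1 library but KO replicate 3 ended it (adjusted p from 0.0662 to 0.143). Fzd3 (ENSMUSG00000007989, chromosome 14, 65429898 to 65499912, minus strand) had 0.946, 0.875 and 0.767 FPKM in KO and 1.02, 1.04 and 1.04 FPKM in WT. Its KO libraries were more scattered than its WT libraries, and it had the fewest counts of the 10, 731 to 963 per library. The log2 change was -0.31 ± 0.09, or 80.6% of WT (70.6 to 92.0%, edgeR, adjusted p = 0.025). That call was lost in 8 of the 12 alternatives that tested it, with adjusted p from 0.0183 to 0.295. Leaving out any 1 library but KO replicate 1 ended it (adjusted p from 0.0599 to 0.0845).

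The order of the genes by FPKM was nearly the same in both genotypes. In KO it ran Fzd1, Fzd2, Fzd7, Fzd8, Lrp6, Fzd5, Lrp5, Fzd4, Fzd6 and Fzd3, and the ranges of Fzd5 and Lrp5 overlapped. In WT it ran Fzd1, Fzd2, Fzd7, Fzd8, Lrp6, Lrp5, Fzd4, Fzd5, Fzd6 and Fzd3, and the ranges of Fzd4 and Fzd5 overlapped. Every other pair of neighbours was separated over the 3 libraries of the genotype. Fzd5 thus stood below Lrp5 and level with Fzd4 in WT, and level with Lrp5 and above Fzd4 in KO.

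Summed over Fzd1 to Fzd8, the Frizzled level was 147, 146 and 148 FPKM in KO and 167, 170.2 and 168 FPKM in WT. Fzd1, Fzd2 and Fzd7 together made up 75.5 ± 0.396% of it in KO and 75.2 ± 0.239% in WT (SD, n = 3 each). The share of Fzd4 was 4.28 ± 0.154% in KO and 5.69 ± 0.152% in WT, and that of Fzd5 was 6.37 ± 0.0403% in KO and 5.57 ± 0.086% in WT. The share of Fzd1 was 41.6 ± 1.15% in KO and 39.6 ± 0.296% in WT, and that of Fzd2 was 20.9 ± 0.808% in KO and 22.4 ± 0.39% in WT. For these 4 genes the KO and WT shares did not overlap. The Frizzled sum was 7.46, 6.97 and 7.44 times the co-receptor sum in KO and 6.65, 6.71 and 6.94 times in WT, so KO replicate 2 came close to WT replicate 3.

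**Figure D3:**
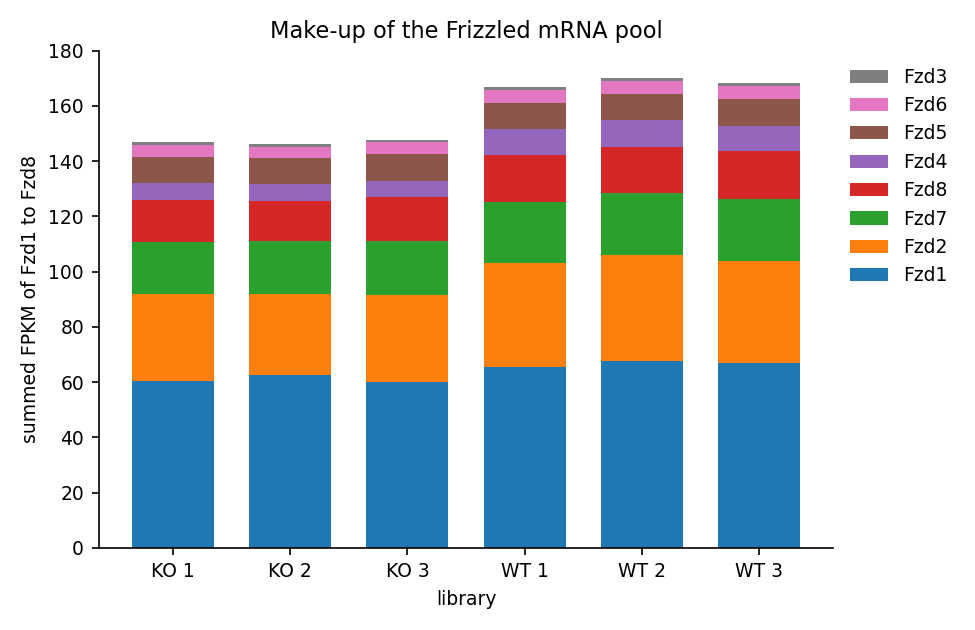
Summed FPKM of Fzd1 to Fzd8 in each library, as bars that start at 0 and are divided by gene, the KO libraries on the left and the WT libraries on the right. The KO bars reach 146 to 148 FPKM and the WT bars 167 to 170.2 FPKM, and Fzd1 fills the largest part of each.

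The Frizzled genes outside the 10 were Fzd9 and Fzd10. Fzd9, which acts in mouse bone formation, had 12.9, 15.0 and 12.04 FPKM in KO and 14.8, 13.7 and 15.3 FPKM in WT. Its groups overlapped, and the log2 change of -0.18 ± 0.08 was not called (edgeR, adjusted p = 0.134), though it was without KO replicate 2 (log2 change -0.27, adjusted p = 0.0283). Fzd10 was barely read, with 0.40, 0.348 and 0.316 FPKM in KO and 0.87, 0.581 and 0.886 FPKM in WT, and was called lower (log2 change -1.18 ± 0.23, edgeR, adjusted p = 0.00388).

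The genes whose pattern over the 6 libraries lay closest to Lrp5, by root mean square difference of centred log2 CPM, were Marcksl1 (0.022), Limd2 (0.024) and Adcy9 (0.030). Those closest to Lrp6 were Hbp1 (0.014), Adam23 (0.016) and Fstl1 (0.017). Hbp1, a transcription factor, changed by -0.32 ± 0.03 and Fstl1, a secreted glycoprotein, by -0.30 ± 0.02.

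Of 11 other receptors and partners of Frizzled 1 was higher and 3 lower, with a median log2 change of -0.003. Over all tested genes 11.2% were higher and 11.7% lower, so the count of higher calls was near that of genes in general. The same shares stand behind the counts of the lists that follow. Ptk7, a pseudokinase receptor of the planar polarity branch, was higher (0.32 ± 0.03). Ror1 (-0.35 ± 0.07), Adgra2, which helps Frizzled receive WNT7 signals at brain vessels (-0.32 ± 0.02), and the glypican Gpc3 (-1.06 ± 0.03) were lower. The other Wnt receptors Ror2 (-0.11 ± 0.05) and Ryk (0.08 ± 0.03) were not called, though Ryk was in 4 of 14 alternatives. The call of Ror1 was lost in 1 of 14 alternatives.

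Some mRNAs for proteins that set how much receptor reaches the surface were called. Of 12 tested genes of receptor turnover and folding 3 were higher and 5 lower, with a median of -0.20. Lgr4 (0.59 ± 0.04) and the R-spondin gene Rspo2 (0.36 ± 0.04), whose products shield Frizzled and LRP from removal, were higher, while Lgr5 (-1.07 ± 0.05) and Rspo3 (-0.22 ± 0.03) were lower. The ligase gene Rnf43, whose product removes Frizzled from the surface, was called higher at 0.942 ± 0.22 CPM in KO and 0.344 ± 0.101 CPM in WT, and its call was lost in 3 of 12 alternatives. Its relative Znrf3 was not called (-0.32 ± 0.12). Shisa2 (-1.67 ± 0.06) and Shisa3 (-3.45 ± 0.43), relatives of a frog protein that holds Frizzled in the endoplasmic reticulum, were lower. Shisa3 stood under 1 FPKM in every library. The Wnt inhibitor Apcdd1 (-0.82 ± 0.08) was also lower. Mesd, the chaperone that LRP5 and LRP6 need to fold, stood at 96.0 ± 1.03 CPM in KO and 92.1 ± 4.17 CPM in WT and was not called (0.06 ± 0.04).

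Among the extracellular antagonists that were called, those of LRP5/6 were higher and those that bind Wnt were lower. Of 4 tested antagonists of LRP5/6 and their partners 2 were higher and 0 lower (median 0.29). They were Dkk2 (38.6 ± 1.1 CPM in KO and 25.3 ± 2.36 CPM in WT) and Sostdc1 (4.78 ± 0.567 CPM in KO and 3.03 ± 0.329 CPM in WT). Kremen1 (-0.02 ± 0.03), a receptor of the DKK proteins, and Lrp4 (-0.03 ± 0.07), which binds sclerostin, were not called, and Dkk1 and Sost were too low to be tested. Of 6 tested Wnt-binding decoys and Wnt-inactivating enzymes 0 were higher and 4 lower (median -0.76), namely Sfrp1 (-0.58 ± 0.03), Sfrp2 (-1.91 ± 0.06), Sfrp4 (-0.96 ± 0.06) and Wif1 (-0.94 ± 0.24), whose call was lost in 2 of 14 alternatives. Of 13 tested ligands 1 was higher and 5 lower (median -0.11). Wnt5a, a ligand of the branches without beta-catenin, was higher (0.41 ± 0.04), and Wnt16 (-1.24 ± 0.08), Wnt5b (-0.58 ± 0.13), Wnt7b (-2.11 ± 0.47), Wnt2b (-0.96 ± 0.27) and Ndp (-1.02 ± 0.33), the norrin gene, were lower. Wnt2b lost its call in 5 of 12 alternatives and Ndp in all 12. Wnt7b, Wnt2b and Ndp each stood under 1 FPKM in every library.

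Of 15 kinases and scaffolds below the receptors 2 were higher and 3 lower (median -0.03), beside 11.2% higher and 11.7% lower among all tested genes. They were Dvl3, a Dishevelled gene (0.11 ± 0.04), Csnk1a1 (0.09 ± 0.03), Csnk1g2 (-0.11 ± 0.03) and Csnk1g3 (-0.18 ± 0.05), genes of casein kinase 1, and Ctnnb1, which encodes beta-catenin (-0.08 ± 0.02). Each of these 5 calls was lost in at least 5 of 14 alternatives. Of 8 nuclear factors 4 were lower and 0 higher (median -0.13). Those lower were Lef1 (-1.27 ± 0.26), Tcf7l1 (-0.31 ± 0.05), Pygo1 (-0.38 ± 0.07) and Bcl9l (-0.16 ± 0.03). The call of Bcl9l was lost in 3 of 14 alternatives. Lef1 was barely read, with 0.0769 to 0.139 FPKM in KO and 0.229 to 0.310 FPKM in WT. Of 7 planar polarity genes 1, Prickle1, was lower (-0.69 ± 0.06) and 0 higher (median -0.04), against 22.9% of all tested genes called in either direction. Celsr2 (-0.87 ± 0.31), Vangl2 (-0.16 ± 0.07) and Celsr3 (0.25 ± 0.37) were not called. Of 10 tested feedback targets of beta-catenin, 8 of which also stand in the other lists, 2 were higher and 4 lower (median -0.21). Axin2, the most used of these targets, was not called (0.16 ± 0.11, edgeR, adjusted p = 0.337), Nkd2 was higher (0.46 ± 0.06), and Nkd1 was lower (-0.98 ± 0.06).

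**Figure D4:**
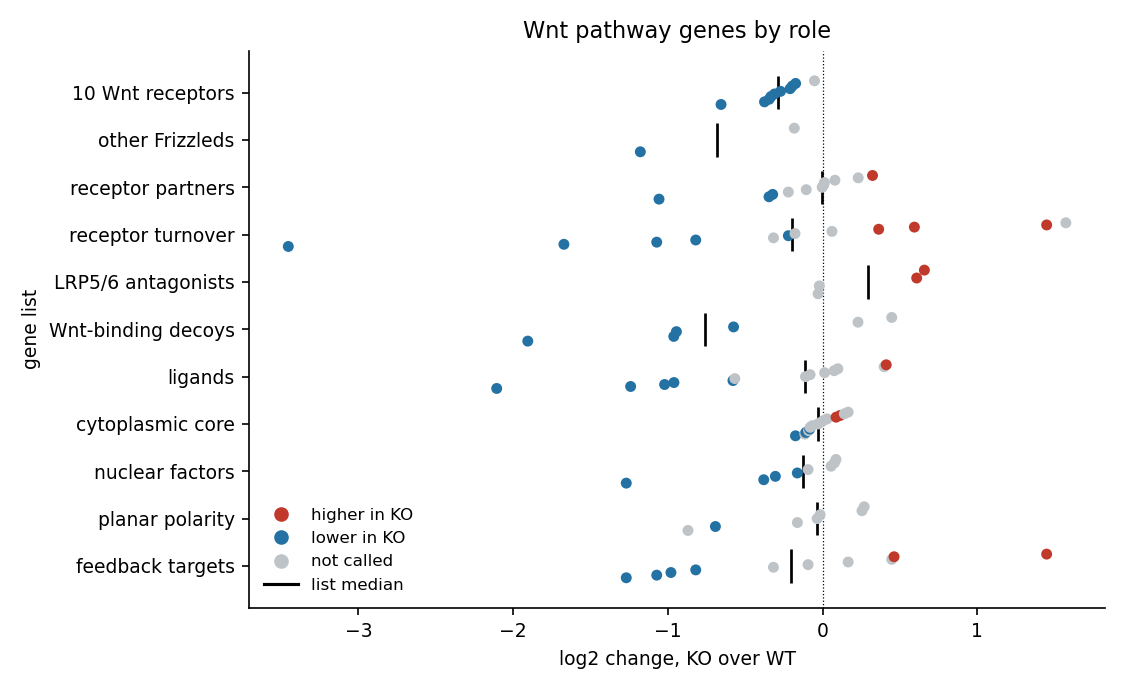
Log2 change, KO over WT, of each tested gene by role in the Wnt pathway, red for genes called higher in KO, blue for lower and grey for not called, with a black line at the median of each list. The 10 receptors lie to the left of 0, from -0.66 to -0.05 with a median of -0.29. The other lists, Fzd9 and Fzd10 apart, have called or uncalled genes on both sides.

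**Figure D5:**
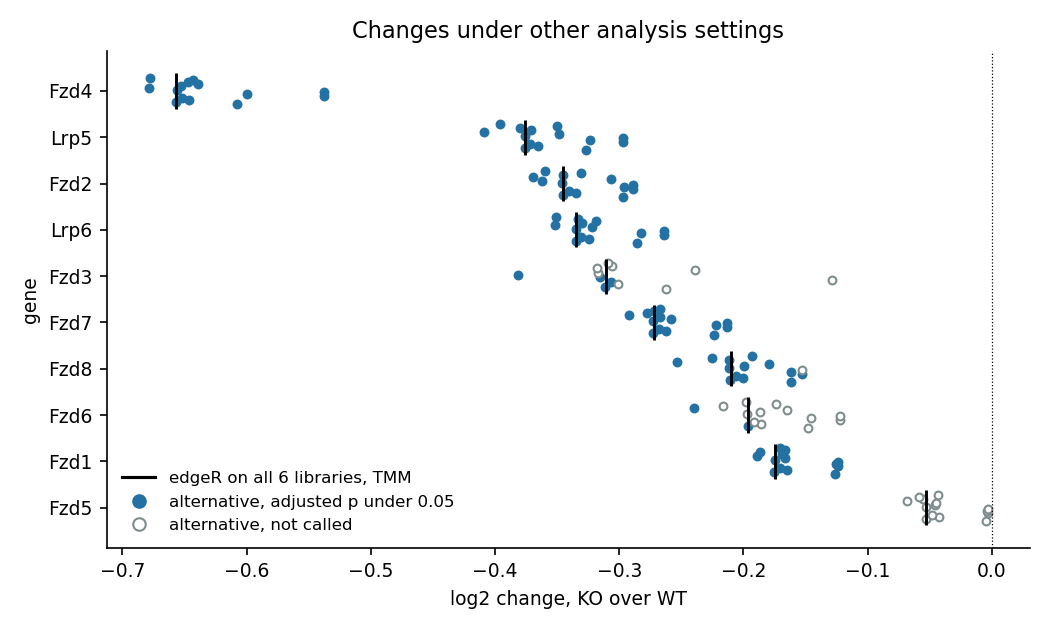
Log2 change, KO over WT, of each of the 10 genes under up to 14 other analysis settings, filled where the adjusted p was under 0.05 and open where it was not, with a black line at the value from all 6 libraries. Fzd4, Lrp5, Fzd2, Lrp6, Fzd7 and Fzd1 are filled throughout, Fzd3 and Fzd6 are mostly open, and all values are below 0.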

How the data were processed

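Per the submitters' processing notes, the authors used cutadapt 1.9, HISAT2 2.0.4 and StringTie 1.3.4d. The notes list a human build although all identifiers are of mouse, and coordinates matched those of GENCODE M21 for 495 of 27342 identifiers held in common, so the build was not settled. The deposited counts are whole reads or fragments per gene, with a counting method and strand setting not stated in any label. The deposited FPKM were computed by the authors, per the file headers.

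Counts were tested with edgeR 4.0.16 in R 4.3.3 (two-sided quasi-likelihood test after TMM and filterByExpr, without covariates, Benjamini-Hochberg over 18221 genes, adjusted p under 0.05). Each SE came from dividing the size of the log2 change by √F. The script was tested on simulated data. Alternatives were edgeR without TMM, with DESeq2 size factors, without a filter, with a replicate block or without each library, DESeq2 1.42.0, and limma 3.58.1 on log2(FPKM + 1) or log2(FPKM + 0.1) for genes averaging 1 FPKM or more, or without that limit. For each pair of replicates the median chi-square over genes averaging at least 50 counts was 6.05 to 7.08 times that of counting noise, so no pair agreed within it. Genes named were the 10 receptors, Stk38, called members of the pathway lists, up to 4 per list of lowest p, and the 3 genes nearest to Lrp5 and Lrp6. Further genes (Ror2, Ryk, Znrf3, Mesd, Axin2, and the markers) were named after their values were seen. The receptors and lists were chosen with earlier results of these data known. Results for 1 further gene list are not reported here.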

Additional observations from a re-analysis of the deposited data

How the results depend on the processing

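Over the 14 alternatives the count of receptors called lower ran from 6 to 9, and none was called higher. All 138 receptor values under the alternatives were negative, and 6 of the 10 genes (Fzd1, Fzd2, Fzd4, Fzd7, Lrp5 and Lrp6) were called in each. Fzd3 and Fzd6 lost calls as given above, and the cause was not tested. Without 1 library at a time 7 or 8 receptors were lower, and over all genes 1588 to 1731 were higher and 1712 to 1893 lower. Lower calls over all genes numbered 1267, 1254 and 1246 in limma on log2(FPKM + 1), log2(FPKM + 0.1) and log2(FPKM + 1) without a filter, against 2131 in edgeR, and 64.4%, 64.5% and 62.3% of those limma calls were higher. No setting moved the median of all genes above 0.052 on the log2 scale, its value without TMM. With the replicate number as a block edgeR called 8 receptors and 1976 genes in all lower. Same-numbered libraries did not deviate together (correlations -0.045, -0.03 and -0.007), so no pairing by number was seen. With 3 libraries in each group these correlations cannot exclude a pairing. For the 10 receptors in both genotypes, the SD of CPM between libraries was above the counting error in 17 of 20 cases, and in 3 (Fzd3, Fzd5 and Fzd7 in WT) it was at or below it.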
